A study of Homo sapiens with 4 samples.

Results

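The genes examined were 9 factors of DNA methylation and histone H3 lysine 9 (H3K9) methylation, measured in the RNA of RKO cells, a human colon carcinoma line. They were chosen by name from the deposited expression tables: DNMT1, DNMT3A, DNMT3B, UHRF1, SETDB1, EHMT1, EHMT2, SUV39H1 and SUV39H2. All 9 were found, among 13092 genes listed in at least 1 table and 10331 genes with a mean level of at least 1 RPKM over both libraries. RPKM is a read number scaled by transcript length and by the library's assigned reads. Levels of different genes can thus be set side by side within a library, as far as the transcript length used for each gene holds. Which isoforms the cells express was not measured. There were 2 RNA libraries, 1 from RKO cells overexpressing HADH-S, which the series title describes as a nuclear isoform of hydroxyacyl-CoA dehydrogenase, and 1 from control RKO cells labelled WT. How the overexpression was made, for how long, and whether the cells were a clone or a pool is not given in the sources used here. The same series holds a HADH-S chromatin immunoprecipitation and its input, which were not analysed here. With 1 library per condition there is no replicate check, no p-value is given, and "higher" and "lower" describe these 2 libraries only.

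DNA methylation in mammals is laid down at CpG sites by the de novo enzymes DNMT3A and DNMT3B and copied to the new strand after replication by DNMT1, which UHRF1 brings to hemimethylated DNA. H3K9 methylation is the parallel mark on histones. SETDB1 places trimethylation mostly at transposable elements, SUV39H1 and SUV39H2 at pericentromeric repeats, and EHMT1 and EHMT2 (also called GLP and G9a) form a dimer that places mono- and dimethylation. Loss of either system can let endogenous retroviruses be transcribed, and their double-stranded RNA can start an interferon response. RPKM plus 1 was at least 2-fold higher with HADH-S for 31 of the 10331 genes here. Of these 31, 12 were on a list of interferon-stimulated effectors, which was chosen with earlier results of these data known. Among the 12, MX2, OAS1, OAS2, RSAD2 and IFI44 were below 1 RPKM in the control (OAS1 at 0.263 RPKM, against 5.54 RPKM with HADH-S). They passed the filter on the mean level only through the HADH-S library. The silencing factors were compared as possible background to the difference in these effectors. RNA from repeats themselves was not measured, since the tables list genes.

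The regulatory sequence of these genes frames the comparison, because interferon-stimulated genes share a promoter element, the ISRE, that binds the interferon-activated factor ISGF3. A pair of GAAA words with 2 bases of any kind between them was searched on both strands in RefSeq promoter windows of 300 bases (GRCh38.p14, 250 before the start site and 50 from it on), where a match is a description and not a binding site. It occurred for 25 of 35 genes of the list of interferon-stimulated effectors and for 4.38% of all 27305 genes in the promoter table. These 35, of 42 on the list, are the genes with a window in the promoter table, whatever their level. Of the 9 silencing factors, all of which were matched by symbol and which have 18 windows in all, 0 held it, which says only that these letters are not in these windows. The 120 bases before the start site are shown for IFIT1, as a gene with the element in capitals, and for SETDB1 and EHMT2, the silencing factors with the lowest and the highest ratio between the libraries. IFIT1 lies at chr10:89392503-89392622 on the plus strand, SETDB1 at chr1:150926143-150926262 on the plus strand before 1 of its 2 RefSeq start sites, and EHMT2 at chr6:31897699-31897818 on the minus strand.
IFIT1: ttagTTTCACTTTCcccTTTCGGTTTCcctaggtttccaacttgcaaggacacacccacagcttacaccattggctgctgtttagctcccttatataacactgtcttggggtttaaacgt
SETDB1: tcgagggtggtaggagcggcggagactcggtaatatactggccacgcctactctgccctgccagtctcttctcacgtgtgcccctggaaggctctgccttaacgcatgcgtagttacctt
EHMT2: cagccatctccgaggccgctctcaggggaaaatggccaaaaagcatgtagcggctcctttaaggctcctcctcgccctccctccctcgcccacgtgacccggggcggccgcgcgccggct

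A second set of words was found in windows of UHRF1 and DNMT1 only, among the 9 factors. The 4 words TTTCCCGC, TTTCGCGC, TTTGCCGC and TTTGGCGC, which together spell the site of the S phase factors of the E2F family, were searched in the same windows on both strands. They occurred for 3.99% of all genes in the promoter table and for 2 of the 9 silencing factors, UHRF1 and DNMT1. On the S phase list of 32 genes, 28 had a window, and 16 of these 28 held a match. Here too a match is a description and not a binding site. Each word holds a CG, and windows of the 9 factors had a median of 27 CpG, against 14 over all windows. The share over all genes is therefore not a background of like windows. The matches are shown in capitals. UHRF1 is given with the 60 bases before 1 of its 3 listed start sites (chr19:4909441-4909500, plus strand, match beginning 14 bases before the start). DNMT1 is given with 24 bases around its start (chr19:10194942-10194965, minus strand, match beginning 2 bases before the start).
UHRF1: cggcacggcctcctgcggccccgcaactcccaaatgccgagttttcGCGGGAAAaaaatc
DNMT1: atcggtttccGCGCGAAAagccgg

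The label was checked on HADH, which reached 54.4 RPKM in the overexpressing cells against 26.5 RPKM in control cells, a ratio of 2.05 (95% counting interval 1.79 to 2.35). The single value per gene does not separate HADH-S from other HADH isoforms. Of 13 markers of colon epithelium, 5 were listed and 8 were in neither table, CDH1, KRT20 and VIL1 among the 8. Of those listed, the keratin gene KRT18 was at 93.8 against 91.7 RPKM, EPCAM at 9.57 against 8.20 RPKM and the intestinal factor CDX2 at 4.37 against 3.597 RPKM. Fibroblast markers summed to 0.115 RPKM in overexpressing cells against 0.0553 RPKM in control cells. Of 12 leukocyte markers, CD68, LCP1 and CORO1A were listed, adding up to 707 and 646 RPKM, while PTPRC, the defining leukocyte surface gene, was not listed. Of 8 endothelial markers EGFL7 and CLDN5 were listed, adding up to 58.6 and 48.6 RPKM. Both libraries are labelled as RKO cells, and whether any other cells had a part in a result was not tested. Assigned reads totalled 6963608 with HADH-S and 6773421 in the control.

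The maintenance pair was the most abundant part of the group and was at nearly equal levels in both libraries. UHRF1 (ENSG00000276043, chromosome 19, 4903080 to 4962154, as all gene positions here from RefSeq on GRCh38.p14) stood at 62.3 RPKM in overexpressing cells against 61.6 RPKM in control cells, on 1719 and 1654 reads. DNMT1 (ENSG00000130816, chromosome 19, 10133346 to 10194953) stood at 55.8 RPKM in overexpressing cells against 55.9 RPKM in control cells, on 2048 and 1997 reads. The ratios of HADH-S over control were 1.01 for UHRF1 (95% counting interval 0.944 to 1.08) and 0.998 for DNMT1 (0.937 to 1.06). These intervals rest on the read counts alone. No molecular identifiers are described, so reads are not independent molecules. These 2 genes had the most reads and the narrowest intervals of the 9. In bulk RNA, fewer cells that express a gene and less of its RNA per cell cannot be told apart. The level of DNMT1 relative to UHRF1 came to 0.896 under overexpression against 0.908 in control cells, a ratio of ratios of 0.987 (0.900 to 1.08).

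The de novo methyltransferases were the least abundant members and had ratios below 1 that counting error covers. DNMT3A (ENSG00000119772, chromosome 2, 25227874 to 25342590) stood at 2.49 RPKM in overexpressing cells against 2.87 RPKM in control cells, on 165 and 185 reads. DNMT3B (ENSG00000088305, chromosome 20, 32762385 to 32809356) stood at 1.62 RPKM in overexpressing cells against 2.08 RPKM in control cells, on 49 and 61 reads. The ratio was 0.868 for DNMT3A (0.699 to 1.08) and 0.781 for DNMT3B (0.525 to 1.16). A difference of the size seen for DNMT3B was not detectable at this depth. By RPKM, DNMT1 made up 93.1% of the summed level of the 3 methyltransferases with HADH-S and 91.9% in the control. DNMT3B stood at 0.651 of the level of DNMT3A under overexpression against 0.723 in control cells, and the ratio of these values was 0.901 (0.571 to 1.42).

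**Figure D1:**
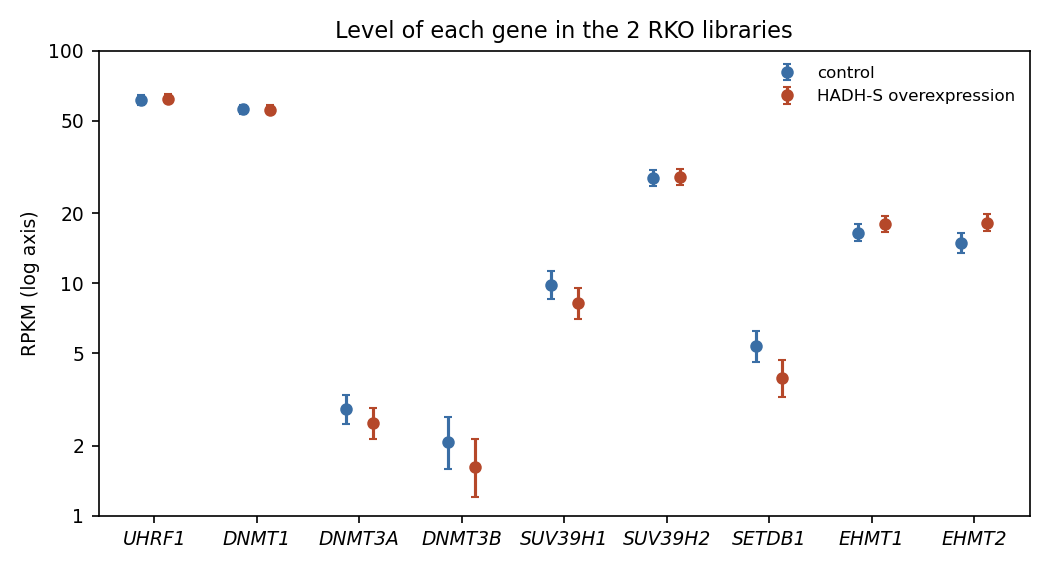
RPKM (log axis) of the 9 genes in the control library (blue) and the HADH-S library (red), 1 library each, with bars for the exact 95% Poisson interval of the reads. UHRF1 and DNMT1 lie between 55.8 and 62.3 RPKM in both libraries, DNMT3A and DNMT3B below 3 RPKM, and the bars of the 2 libraries overlap for 8 of 9 genes, EHMT2 being the exception.

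SETDB1 was the member with the lowest ratio. SETDB1 (ENSG00000143379, chromosome 1, 150926263 to 150964737) stood at 3.92 RPKM (counting interval 3.25 to 4.68) in overexpressing cells against 5.36 RPKM (4.56 to 6.25) in control cells, on 121 and 161 reads. The library of overexpressing cells was therefore lower, at a ratio of 0.731 with a counting interval of 0.573 to 0.931. As the log2 ratio of RPKM plus 1, HADH-S over control, which understates the change of low genes, the value was -0.37, and 2.25% of the 10331 genes had a lower one. It was among 2 of the 9 members whose counting interval left out 1.

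The other was EHMT2, in the opposite direction. EHMT2 (ENSG00000204371, chromosome 6, 31879759 to 31897698) stood at 18.2 RPKM (16.7 to 19.9) in overexpressing cells against 14.9 RPKM (13.5 to 16.4) in control cells, on 524 and 417 reads. The ratio was 1.22 (1.07 to 1.39) and the log2 value 0.27, with 89.3% of all genes below it. Its dimer partner EHMT1 (ENSG00000181090, chromosome 9, 137619005 to 137836127) stood at 17.9 RPKM in overexpressing cells against 16.5 RPKM in control cells, on 636 and 569 reads. The EHMT1 ratio of 1.09 (0.969 to 1.22) included 1. EHMT2 stood at 1.02 of the level of EHMT1 with HADH-S and at 0.904 in the control, so their order changed between the libraries, but their intervals overlapped in each library and the ratio of the 2 values was 1.12 (0.944 to 1.34). Part of EHMT2 is overlapped by the antisense transcript EHMT2-AS1, and whether the counting used strand is not given in the sources used here, so reads of the 2 cannot be told apart.

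The SUV39H pair was dominated by SUV39H2. SUV39H2 (ENSG00000152455, chromosome 10, 14878866 to 14904315) stood at 28.7 RPKM in overexpressing cells against 28.3 RPKM in control cells, on 612 and 587 reads, and the ratio was 1.01 (0.904 to 1.14). SUV39H1 (ENSG00000101945, chromosome X, 48695554 to 48709016) stood at 8.20 RPKM in overexpressing cells against 9.87 RPKM in control cells, on 170 and 199 reads. Its ratio of 0.831 (0.673 to 1.02) included 1. SUV39H1 was thus expressed at 0.285 of the level of SUV39H2 under overexpression against 0.348 in control cells, and the ratio of these values was 0.819 (0.644 to 1.04). SUV39H2 overlaps DCLRE1C, SETDB1 the long noncoding LOC107985204, UHRF1 the genes ARRDC5 and MIR4747, DNMT3A the gene MIR1301, and EHMT1 4 pseudogenes or noncoding genes, so part of the reads of each could belong to those.

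The order of levels was almost the same in both libraries. From the highest, it ran UHRF1, DNMT1, SUV39H2, then EHMT1 and EHMT2, then SUV39H1, SETDB1, DNMT3A and DNMT3B. Neighbours in this order had separate Poisson intervals in both libraries except for EHMT1 with EHMT2 and for DNMT3A with DNMT3B. These intervals do not include any error in the transcript length used for a gene. The highest member exceeded the lowest 38.4-fold with HADH-S and 29.7-fold in the control. The levels of the 9 genes summed to 199 RPKM in overexpressing cells against 197 RPKM in control cells.

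**Figure D2:**
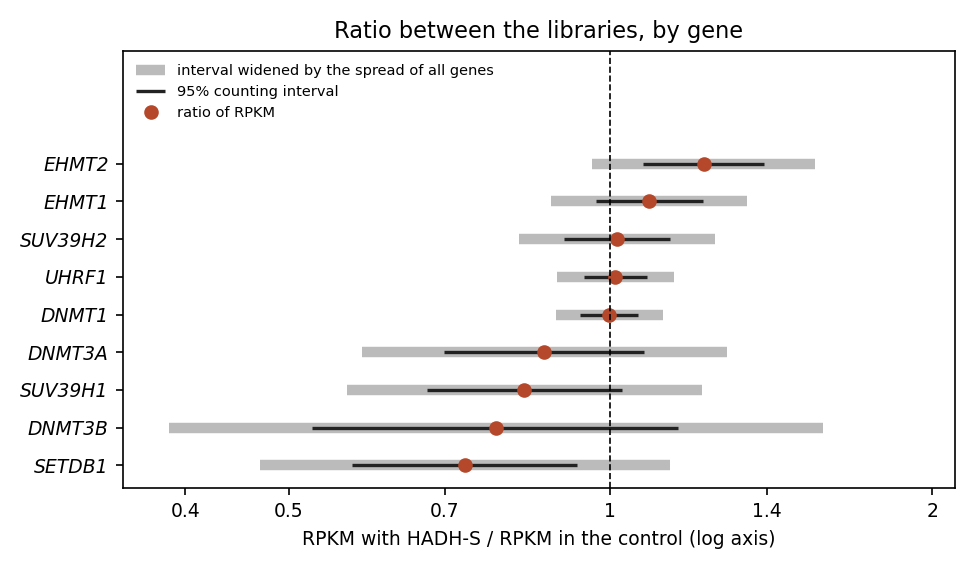
Ratio of RPKM with HADH-S over the control (log axis) for each of the 9 genes, sorted, with the 95% counting interval (black line) and the same interval widened by the spread of all genes over counting error (grey bar). SETDB1 at 0.731 and EHMT2 at 1.22 have counting intervals that leave out 1, and all 9 grey bars include 1.

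Set against all genes, the 9 factors differed between the libraries about as often as any gene. By a rule of size of 2-fold on the log2 scale above, 0 of 9 were higher, where 0.3% of all 10331 genes were, and 0 of 9 were lower, where 0.0484% were. A counting interval above 1 was found for 1 of 9 (EHMT2), against 13.8% of all genes, and one below 1 for 1 of 9 (SETDB1), against 11.6% of all genes. At 1.2-fold on the same scale the counts were again 1 higher, with a background of 11.5%, and 1 lower, with a background of 6.76%. These shares are near the background. By the ratio of RPKM without the added 1, DNMT3B (0.781) and SUV39H1 (0.831) were also at least 1.2-fold lower. The share of all genes by that measure was not computed. The log2 value was negative for 5 of 9 members and for 47.8% of all genes, and the members' median was 0.00 beside a median of 0.01 over all genes.

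The libraries differed more than read counting alone allows, which bears on SETDB1 and EHMT2. For those of the 10331 genes with reads in both libraries, each log ratio, less the median, was divided by its own counting error. By the median absolute deviation, the spread of these values was 1.72 times that of counting error. Their central 95% covered 1.87 times the width that counting error alone would give. This 1.87 was used for every gene alike, so the widened interval may be too narrow for genes with many reads. Widened by that factor, the interval of the ratio was 0.470 to 1.14 for SETDB1 and 0.961 to 1.56 for EHMT2, so neither left out 1. By the widened interval 2.82% of all genes were above 1 and 2.08% below 1, and 0 of the 9 members were in either class. SETDB1 and EHMT2 were paired after their values were seen, as the lowest and the highest ratio of the 9, so their contrast is a description. EHMT2 was at 4.65 times the level of SETDB1 with HADH-S and at 2.78 times in the control, a ratio of ratios of 1.67 (counting interval 1.27 to 2.21, widened 1.01 to 2.76).

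**Figure D3:**
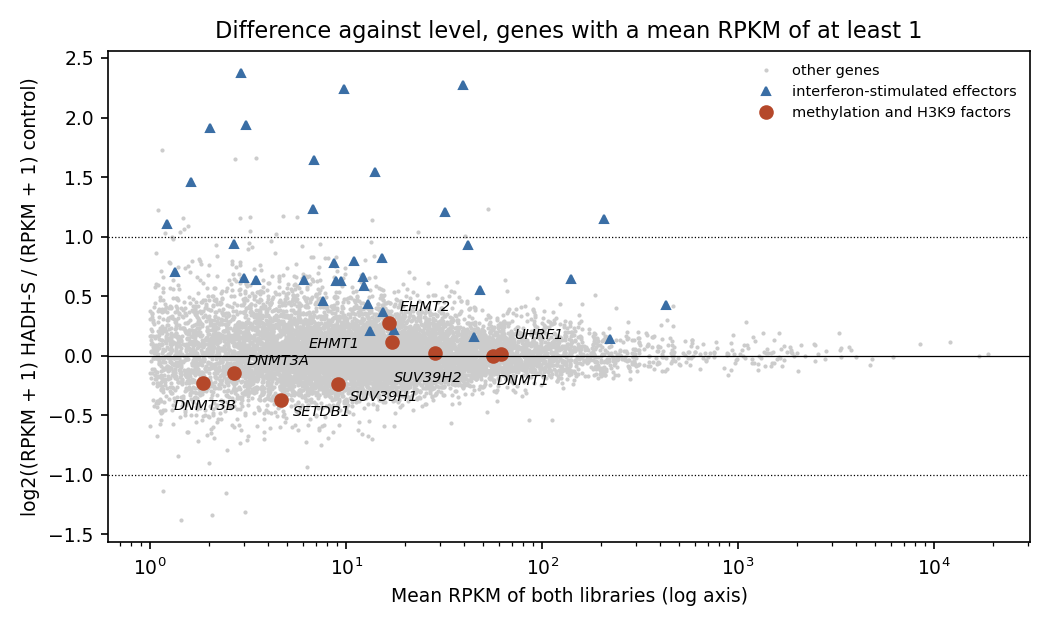
Log2 ratio of RPKM plus 1, HADH-S over control, against mean RPKM (log axis) for the 10331 genes with a mean of at least 1 RPKM, 1 library per condition, with dotted lines at the 2-fold rule of size. The 9 silencing factors (red) lie between -0.37 and 0.27, inside the grey cloud, while the 35 interferon-stimulated effectors (blue triangles) lie between 0.14 and 2.37. The highest, OAS1, was below 1 RPKM in the control and passed the filter only through the HADH-S library.

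Among genes that work with the methylation pair, 1 was higher and 1 lower by counting error. Of 12 measured partners of DNA methylation, 8.33% had a counting interval above 1 and as many had one below, beside 13.8% and 11.6% of all genes, with a median log2 value of -0.04. PCNA, the replication clamp to which DNMT1 binds, stood at 287 RPKM in overexpressing cells against 298 RPKM in control cells (ratio 0.963, 0.913 to 1.02). SMCHD1, a chromatin protein of X inactivation and imprinting, was the member with an interval below 1 (18.5 against 22.4 RPKM, ratio 0.825, 0.761 to 0.893, widened 0.711 to 0.956). DMAP1, a DNMT1-associated protein, was the one above (15.2 against 11.5 RPKM, ratio 1.32, 1.05 to 1.65, widened 0.869 to 1.99). The UHRF1 relative UHRF2 was at 11.2 against 12.8 RPKM (ratio 0.876, 0.742 to 1.03). Of 32 S phase genes, whose promoters often hold the E2F words shared by UHRF1 and DNMT1, 3 had an interval above 1 (9.38%) and 5 below (15.6%), with a median of -0.04, and 0 had a widened interval off 1.

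Partners of the H3K9 enzymes differed in both directions. Of 18 measured genes, 4 had an interval above 1 (22.2%, against 13.8% of all genes) and 1 below (5.56%, against 11.6%), with a median log2 value of -0.03. By the widened interval 2 were above, against 2.82% of all genes, and 0 below, against 2.08%. WIZ, a zinc finger protein of the EHMT1 and EHMT2 complex, stood at 6.55 RPKM in overexpressing cells against 4.67 RPKM in control cells. Its ratio was 1.404 (1.204 to 1.64), and the widened interval, 1.06 to 1.86, also left out 1. TRIM28, the corepressor that brings SETDB1 to zinc finger proteins, was at 140 against 125 RPKM (ratio 1.12, 1.06 to 1.18, widened 1.02 to 1.23). ATF7IP (named with its values known), the stabilising partner of SETDB1, was at 13.6 against 12.9 RPKM (ratio 1.06, 0.923 to 1.21). MGA, of a repressive E2F6 complex, was the gene with an interval below 1 (9.11 against 10.59 RPKM, ratio 0.860, 0.779 to 0.949, widened 0.717 to 1.03).

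The HUSH complex, which acts with SETDB1 and MORC2 on young transposable elements, had more ratios below 1 than above. Of 7 measured genes of the HUSH and MORC list log2 values were negative for 5, where 47.8% of all genes had negative values. A counting interval lay wholly below 1 for 3 ratios and wholly above for 0, and the median log2 value was -0.15. These 3 are 42.9% of the list, against 11.6% of all genes, and 13.8% of all genes had an interval above. By the widened interval 2 of the 7 lay below, TASOR and ZNF638, against 2.08% of all genes. TASOR, the scaffold of HUSH, stood at 24.2 RPKM in overexpressing cells against 28.9 RPKM in control cells (ratio 0.836, 0.763 to 0.916, widened 0.707 to 0.990). ZNF638, which brings HUSH to unintegrated retroviral DNA, was at 27.9 against 32.9 RPKM (ratio 0.847, 0.786 to 0.913, widened 0.738 to 0.973). MPHOSPH8 (named with its values known), the chromodomain subunit, was at 24.9 against 27.7 RPKM (ratio 0.900, 0.813 to 0.997, widened 0.746 to 1.09), and PPHLN1 had a ratio of 0.898 (0.787 to 1.02). MORC2 itself was at 6.96 against 5.82 RPKM (ratio 1.195, 0.998 to 1.43), on the other side of 1.

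Readers and erasers of the marks held more ratios with an interval below 1 than above. Of 11 heterochromatin readers, 0 had an interval above 1, against 13.8% of all genes, and 3 had one below (27.3%, against 11.6%), with a median log2 value of -0.03. These 3 were ATRX, the remodeller that places histone H3.3 at heterochromatin (7.82 against 10.5 RPKM, ratio 0.745, 0.669 to 0.829, widened 0.611 to 0.908), the lamin B receptor LBR (ratio 0.887, widened 0.749 to 1.05) and the HP1 protein gene CBX1 (ratio 0.905, widened 0.759 to 1.08). Of 9 readers of methylated CpG, 0 were above 1 and 1 below (11.1%), with a median of 0.05. In DNA demethylation 1 of 9 was above (11.1%) and 2 below (22.2%). The 1 above was IDH2, at 11.8 against 9.48 RPKM (ratio 1.25, 1.02 to 1.53, widened 0.860 to 1.81). The dioxygenase TET2 was at 2.97 against 3.79 RPKM (ratio 0.783, 0.649 to 0.942, widened 0.557 to 1.10), and IDH1, which makes the 2-oxoglutarate that TET enzymes use, at 51.1 against 66.9 RPKM (ratio 0.763, 0.698 to 0.835, widened 0.646 to 0.902). Of 12 H3K9 demethylases 1 was above (8.33%) and 2 below (16.7%), with KDM4B (ratio 1.29, widened 0.849 to 1.959) and JMJD1C (ratio 0.852, widened 0.756 to 0.959) in opposite directions. ATRX, IDH1 and JMJD1C are the genes of these 4 lists whose widened interval lay below 1, where 2.08% of all genes had one, and 0 had one above.

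**Figure D4:**
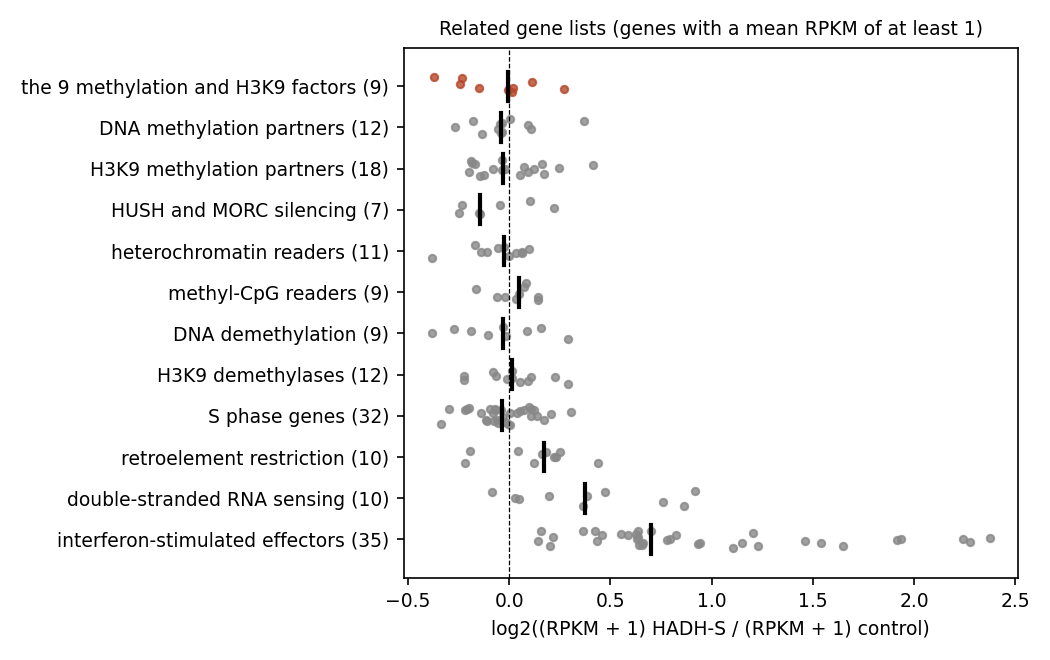
Log2 ratio of RPKM plus 1, HADH-S over control, of each measured gene (points, jittered vertically) in the 9 silencing factors (red) and 11 related lists (grey), with the list median as a black bar and the number of genes in brackets. Medians of the chromatin lists lie between -0.15 and 0.05, those of retroelement restriction, double-stranded RNA sensing and interferon-stimulated effectors at 0.17, 0.37 and 0.70.

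The interferon-linked lists had higher medians than the silencing factors in the same 2 libraries. Of 35 measured interferon-stimulated effectors 33 had a counting interval above 1 (94.3%, against 13.8% of all genes) and 0 below (against 11.6%). By the widened interval 26 were above 1, against 2.82% of all genes, and the median log2 value was 0.70. Both lists were chosen with earlier results of these data known. MX2, OAS1, OAS2, RSAD2, IFI44 and IFIT2 were below 1 RPKM in the control and counted as measured only through the HADH-S library. The sensors of double-stranded RNA had 6 of 10 above (60%, against 13.8% of all genes) and 0 below (against 11.6%). By the widened interval 4 were above, against 2.82% of all genes, and the median was 0.37. RIGI, a sensor of 5' triphosphate RNA, stood at 8.07 RPKM in overexpressing cells against 3.796 RPKM in control cells (ratio 2.13, 1.70 to 2.66), and IFIH1, the sensor of long double-stranded RNA, at 5.85 against 2.76 RPKM (ratio 2.12, 1.58 to 2.87). Both are themselves interferon-stimulated. All 9 silencing factors lay below the median of the effectors on the log2 scale. The central 95% of log2 values of all 10331 genes, from -0.36 to 0.49, also lay below that median. Lying below it therefore does not set the silencing factors apart from other genes. Whether the level of any silencing factor has a part in the interferon difference was not tested.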

How the data were processed

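mRNA libraries from RKO cells were compared, 1 with HADH-S overexpression and 1 control. The authors deposited 1 RPKM value per gene and library, per the file headers, and genes without reads are not listed. Per the submitters' processing notes, shared with the immunoprecipitation samples, fastp 0.23.2, SAMtools 1.9 and GRCh38 were used. For the RNA aligner, counter, strand setting and annotation, no name was given in the sources used here. RPKM times transcript length gave whole reads within 0.01 reads for every value, and a gene missing from 1 table was taken as 0 reads. Ratios carry exact conditional (Clopper-Pearson) 95% intervals and levels exact Poisson ones, both for counting error only. The widened interval multiplies the counting standard error of the log ratio by the spread of all genes, the same factor for each gene. It still narrows with read number, so it may be too narrow for genes with many reads. Log2 values use a pseudocount of 1 and a mean RPKM of at least 1, which all 9 genes passed. Steps were tested on simulated reads.

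The genes and lists were chosen with earlier results of these data known. In each of 21 further lists, the 3 genes with the largest change and the 3 with the highest level could be named, while ATF7IP, MPHOSPH8 and MTHFD1, the pair of EHMT2 with SETDB1, the class of ZNF genes and the widened interval were added once values had been seen. Alternatives were other pseudocounts, scalings, filters, folds and intervals, and removal of a length trend. SciPy 1.17.1 and pandas 2.3.3 were used. The summed level of the colon epithelium markers is not reported here.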

Additional observations from a re-analysis of the deposited data

How the results depend on the processing

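Leaving out a replicate was not possible with 1 library per condition. No paired analysis was possible because each condition has 1 library. The counts of members past the rule of size stayed at 0 in both directions under every pseudocount, scaling and filter and at 1.5-fold. At 1.2-fold, 1 member was higher and 1 lower with the pseudocount of 1, and other pseudocounts were not counted at that fold. The count of counting intervals above 1 stayed at 1 under each scaling and with a 99% interval. The count below 1 stayed at 1 under each scaling and was 0 with a 99% interval, which is wider by construction. With the interval widened by the spread of all genes, an alternative added after the data had been seen, it was 0 above and 0 below. The log2 value lay between -0.44 and -0.22 for SETDB1 and between 0.22 and 0.29 for EHMT2 over 7 alternatives. UHRF1, DNMT1 and SUV39H2, all near 0, changed sign in 1 alternative each. The members' median lay between -0.06 (their mean) and 0.02 (for the 6 factors left by a minimum of 5 RPKM). Scalings moved the median of all genes to between -0.01 and 0.00. Depth limits DNMT3B most, at 49 and 61 reads.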

Other observations

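Methylation was not measured, but genes that it is known to silence in many cells can be described. Of 45 germline and cancer-testis genes, 10 were listed, none above 0.256 RPKM, and 0 reached a mean of 1 RPKM. The other 35, among them DAZL and MAGEA1, were in neither table and were not evaluated. Of 29 genes often methylated in colorectal cancer, 8 were measured, adding up with the listed others to 90.7 RPKM in overexpressing cells against 82.9 RPKM in control cells. Of the 8, 2 had a counting interval above 1 (25%, against 13.8% of all genes) and 0 below, and by the widened interval 0 were above. These 2 were SOCS1, a feedback inhibitor of cytokine signalling (1.85 RPKM with HADH-S against 0.662 in the control, ratio 2.80, 1.21 to 7.23, widened 0.620 to 12.6, from 23 and 8 reads), and the transcriptional repressor HIC1 (4.09 against 2.37 RPKM, ratio 1.73, 1.203 to 2.504, widened 0.897 to 3.33). SOCS1 was below 1 RPKM in the control and counted as measured only through the HADH-S library. Whether methylation has a part in the SOCS1 or HIC1 difference was not tested. Of 11 measured imprinted genes, 1 had an interval above 1 (9.09%, against 13.8% of all genes), and 0 below (against 11.6%). The 1 above was ZDBF2 (ratio 1.25, 1.01 to 1.56, widened 0.843 to 1.86). TET1 was not evaluated, being in neither table.

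Among genes that restrict retroelements, 5 of 10 measured members had an interval above 1 (50%, against 13.8% of all genes) and 1 below (10%, against 11.6%), with a median log2 value of 0.17. By the widened interval 2 were above, SAMHD1 and ADAR, against 2.82% of all genes. The dNTP hydrolase SAMHD1 stood at 19.3 RPKM in overexpressing cells against 14.0 RPKM in control cells (ratio 1.38, 1.23 to 1.55, widened 1.12 to 1.71), and the RNA editor ADAR at 66.6 against 59.4 RPKM (ratio 1.12, 1.06 to 1.18, widened 1.02 to 1.24). SAMHD1, ADAR and APOBEC3 genes respond to interferon too, and APOBEC3 reads are hard to divide among near copies. Of 23 genes derived from retroelements, 4 were measured. The envelope gene ERV3-1 stood at 0.851 RPKM in overexpressing cells against 1.75 RPKM in control cells, on 19 and 38 reads (ratio 0.486, 0.265 to 0.865, widened 0.173 to 1.36), while ERVK3-1 was at 60.7 against 53.8 RPKM (ratio 1.13, 1.00 to 1.27, widened 0.909 to 1.402).

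Of 13 measured genes of the methyl donor supply, 1 had an interval above 1 (7.69%) and 4 below (30.8%, against 11.6% of all genes). By the widened interval 1 was below, against 2.08% of all genes. It was the folate enzyme MTHFD1, named with its values known (41.4 against 46.5 RPKM, ratio 0.890, widened 0.793 to 0.998). MAT2A, which makes S-adenosylmethionine, stood at 117 RPKM in overexpressing cells against 129 RPKM in control cells (ratio 0.904, 0.853 to 0.957, widened 0.812 to 1.005), and AHCY, which clears its product, at 123 against 113 RPKM (ratio 1.095, 1.02 to 1.17, widened 0.967 to 1.24). Of 13 genes of H3K27 methylation, 2 were above and 2 below, 15.4% each, and 0 by the widened interval, with EZH2 at 42.2 against 44.3 RPKM (ratio 0.952, 0.861 to 1.05). Genes with a symbol of ZNF and a number, a class chosen after the values were seen whose KRAB members recruit TRIM28 and SETDB1, had 368 measured members. Of these, 19 had an interval above 1 and 45 below, 5.16% and 12.2%, where all genes had 13.8% and 11.6%, and their median log2 value was -0.05.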
